A study of Mus musculus with 6 samples.

Results

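The replication-dependent histone genes were taken as the protein-coding genes of GENCODE M21 whose symbols begin with Hist1h, Hist2h, Hist3h or Hist4, which gave 67 of 21951 protein-coding genes. The CpG sites of each gene were the covered cytosines from 1 kb upstream of its start to its end, and together they were 696 of the 890041 sites measured by reduced representation bisulfite sequencing (RRBS), each counted once. The tissue was the dentate gyrus, the part of the hippocampus in which new neurons are born in adult mice. All animals were female C57BL/6JRj mice aged 4.5 months. For 3 months, 3 of them had been kept under environmental enrichment (ENR) and 3 others in standard housing (STD), with 1 library from each mouse. The ENR mice shared 1 enclosure, so the effects of housing and of that cage cannot be told apart. The percentages average over all cell types of the dissected tissue, and they hold no expression marker by which the labelled tissue could be checked. RRBS cuts DNA at CCGG and reads the ends of the fragments, and a site's value is the percent of reads in which its cytosine was methylated. Sites were kept from 10 reads upward. How far above this minimum a site lay is unknown, so no interval or floor that needs its read number is given.

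Replication-dependent histone genes supply the histones that package newly copied DNA in S phase. The core histones H2A, H2B, H3 and H4 form the nucleosome, and the linker histone H1 binds the DNA between nucleosomes. The genes lie in clusters, often as pairs that share 1 promoter, and most have no introns. Their mRNAs end in a conserved stem-loop in place of a poly(A) tail. A few members are made mainly in the testis, where the histones TH2A (gene Hist1h2aa), TH2B (Hist1h2ba) and H1t (Hist1h1t) enter the chromatin of male germ cells.

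The stem-loop was searched for in the reference sequence as a check of what the symbols had selected. The motif, searched with the fourth, the tenth and the thirteenth base left free and all others fixed as in the forms printed here, was found on the gene's own strand within 300 bases either side of the end of the coding sequence in 58 of the 67 genes, against 2 of 21871 other protein-coding genes (0.00914%). On the opposite strand it was found in 2 members, the neighbours Hist2h2ab and Hist2h2ac that lie tail to tail, and in 0 other genes. The motif began 25 to 62 bases after the coding end, with a median of 35. It came in 5 forms, which are shown because they are the sequence that the family shares most closely, the capitals marking the whole motif.
Most frequent form (38 genes, among them Hist1h1a): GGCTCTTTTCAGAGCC
Second form (9 genes, among them Hist1h2ba and Hist1h1t): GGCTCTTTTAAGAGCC
Most frequent H4 form (8 genes, among them Hist1h4c): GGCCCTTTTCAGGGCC
Second H4 form (Hist1h4i and Hist2h4): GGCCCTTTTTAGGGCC
Hist2h2ac: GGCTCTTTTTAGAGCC
None of these forms was found in the searched window of Hist1h4j, Hist1h2an, Hist1h2bp, Hist1h2bq, Hist1h2br, Hist1h3g, Hist1h4b, Hist1h4a and Hist2h2be. In Hist1h2bp, Hist1h2bq and Hist1h2br the annotated coding sequence has 2 parts, and its outermost end was the one searched. Promoters from the RefSeq table for GRCm38.p6, which run from 250 bases before to 50 bases after the start, were matched to 61 members by position and strand. CCAAT, searched on both strands, was present in 52 of these (85.2%) against 37.4% of all 32851 promoters of the table. TATAAA was present on either strand in 34 (55.7%) against 13.6% of all promoters.

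Of the 67 genes, 42 had at least 1 covered site and 41 had at least 3. The Hist1 cluster on chromosome 13 held 54 members, of which 30 were covered, and the Hist2 cluster on chromosome 3 held 10, of which 9 were covered. Both Hist3 genes on chromosome 11 (Hist3h2a and Hist3h2ba) and Hist4h4 on chromosome 6 were covered. By type, sites covered 5 of 6 H1 genes, 10 of 18 H2A genes, 11 of 18 H2B genes, 6 of 12 H3 genes and 10 of 13 H4 genes. The 25 genes without a site were Hist1h1t, the H2A genes Hist1h2ab, Hist1h2ad, Hist1h2ae, Hist1h2af, Hist1h2ag, Hist1h2ah, Hist1h2ak and Hist1h2an, the H2B genes Hist1h2bb, Hist1h2bf, Hist1h2bg, Hist1h2bj, Hist1h2bk, Hist1h2bn and Hist1h2bp, the H3 genes Hist1h3a, Hist1h3b, Hist1h3c, Hist1h3h, Hist1h3i and Hist2h3b, and the H4 genes Hist1h4b, Hist1h4d and Hist1h4k. Nothing about their methylation can be read from these data. Neighbouring genes shared 102 of the 696 sites, because the upstream reach of one gene runs into the next, most often in H2A and H2B pairs such as Hist2h2ac and Hist2h2be (36 sites). The 2 genes of such a pair are not separate measurements. Among genes outside the family, Trim17 overlapped 16 of the sites and Bola1 overlapped 8.

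The genes without a site did not lack the restriction site, which was present in the window of all 67 members. The median number of CCGG sites was 8 in the windows of covered genes (range 4 to 28) and 8 in those of genes without a site (range 2 to 10). Much of the coding sequence recurred between members. With cytosine read as thymine, as after bisulfite conversion, a median of 95.3% of the 75-base stretches of a covered coding sequence recurred elsewhere in the 67 windows, and 96.2% in genes without a site. More than 50% of the coding sequence recurred in 29 of 42 covered genes and in 24 of 25 genes without a site. Among 75-base reads that would start at a cut restriction site, 33.5% of 424 whose converted sequence was found once held a covered site, and 11.9% of 403 whose converted sequence was found more than once did. With reads of 50 bases these shares were 33.7% of 356 and 12.7% of 472. Copies outside the 67 windows were not searched, and the part of repeated sequence in the missing coverage was not tested. Near-identical genes such as Hist2h2aa1 and Hist2h2aa2, or Hist2h3c1 and Hist2h3c2, had covered sites. Whether the reads at these sites could be told apart between the copies was not tested.

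**Figure D1:**
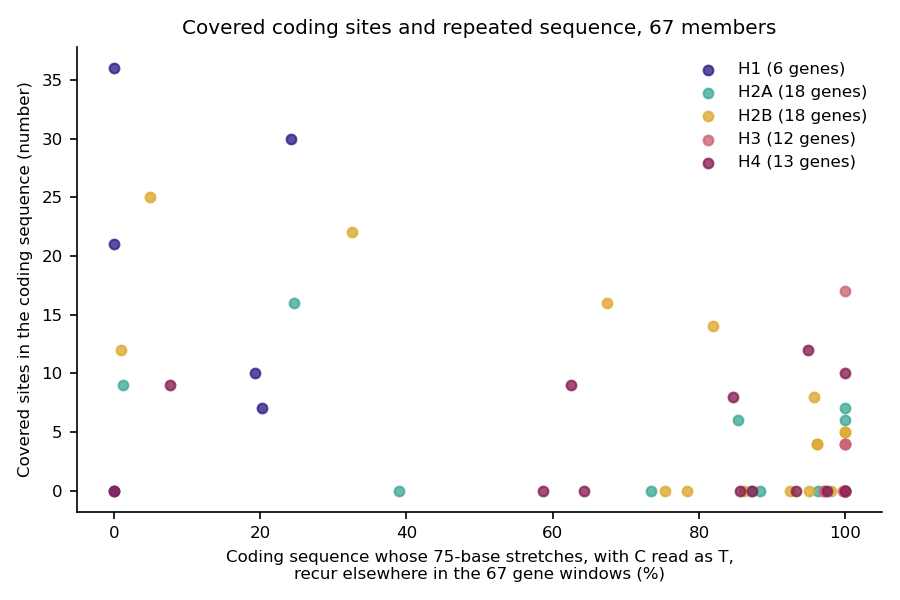
Each point is 1 of the 67 members, coloured by histone type, with the percent of its coding sequence whose 75-base stretches recur elsewhere in the gene windows on the x axis and the number of covered sites in its coding sequence on the y axis. The H1 genes, whose coding sequences recur in at most 24.2%, include the genes with 36 and 30 covered coding sites, and many of the genes without a covered coding site sit near 100%.

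Most histone genes held little CpG methylation. Of the 42 covered genes, 37 had a mean under 5% over the 6 libraries and 36 had a mean under 3%, and the median gene was at 1.35%. A mean under 5% was seen in 35.9% of all protein-coding genes with at least 3 sites, whose median was 9.74%. Over sites, 598 of 696 (85.9%) were under 5%, and 319 (45.8%) were at 0 in all 6 libraries. These shares were close to those of like regions of any protein-coding gene, where 84.2% of coding sites in the first 1 kb were under 5% and 50.6% at 0 in all libraries, and 83.0% and 47.7% of sites in the 1 kb upstream. Over all sites of the table they were 54.8% and 29.8%. Of the other members' sites, 41 sites lay between 5% and 10%, 9 between 10% and 50%, and 48 above 50%. The 5 genes with a mean above 10% were the testis pair Hist1h2aa and Hist1h2ba, Hist4h4, Hist1h2be, which encodes an H2B, and the H4 gene Hist1h4f, which had 2 sites only and is named after its sites.

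**Figure D2:**
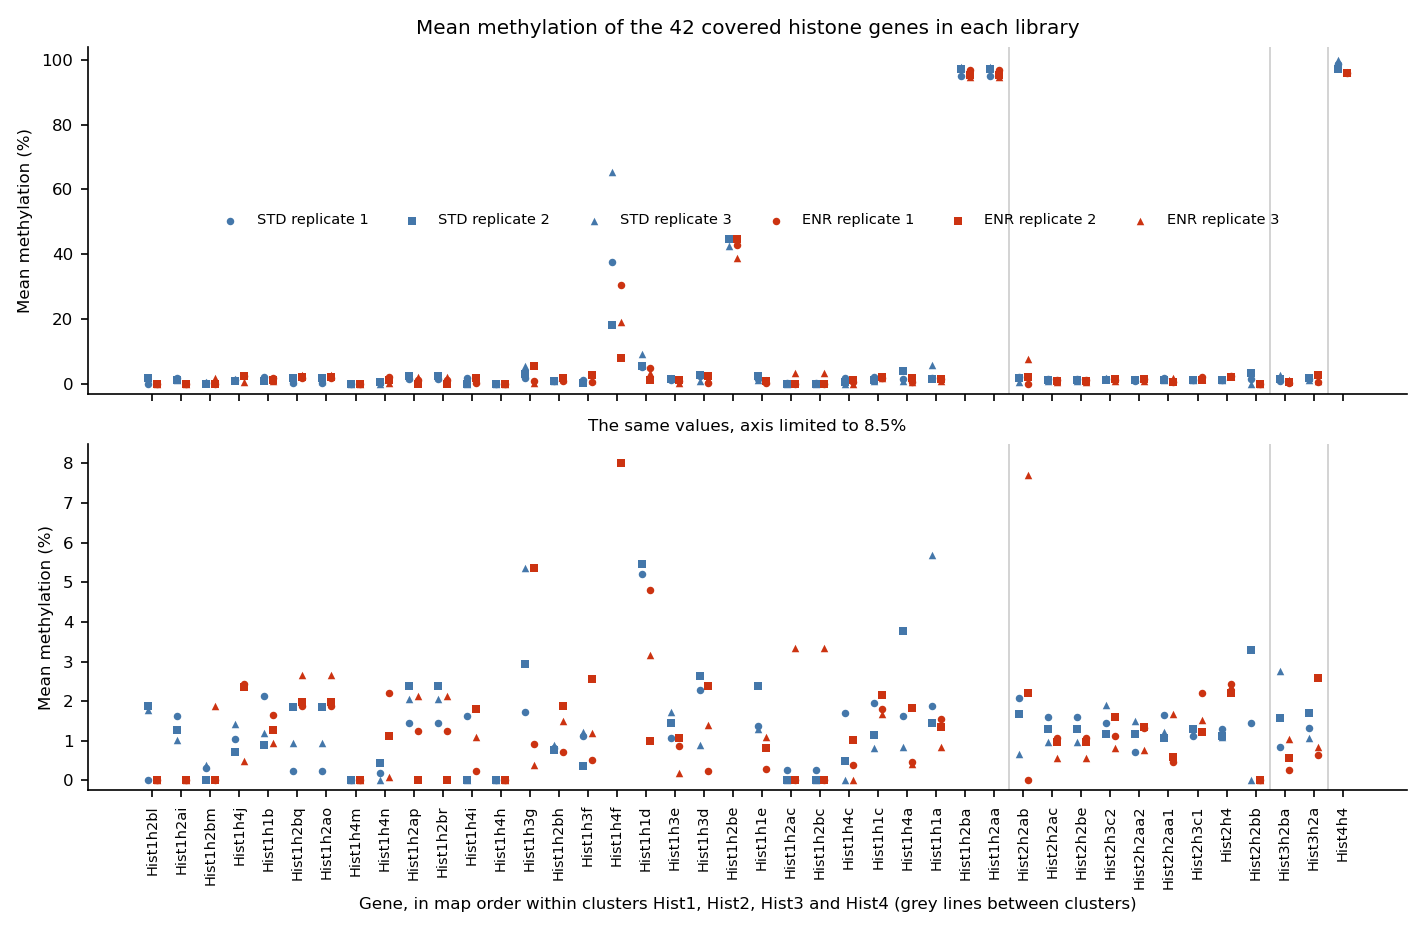
Mean methylation (%) of each of the 42 covered genes in each library, STD in blue and ENR in red with a symbol for each replicate, over the whole axis above and limited to 8.5% below. Hist1h2ba, Hist1h2aa and Hist4h4 sit above 94% in every library, Hist1h2be near 43.0%, Hist1h4f spreads from 8.01% to 65.4%, and the other 37 genes have means under 5%.

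The 48 sites above 50% lay in 3 places, 31 in the pair of testis histone genes, 10 in the intron of Hist1h2be and 7 in the exon of Hist4h4. Hist1h2ba (chromosome 13, 23933773 to 23934156, minus strand) and Hist1h2aa (23934462 to 23934851, plus strand) lie head to head with 305 bases between them, 169367 bases beyond Hist1h1a at the end of the cluster. Their 31 covered sites, all in coding sequence, had means between 88.2% and 100%. In the STD libraries the mean over these sites was 95.1%, 97.2% and 98.0%, and in the ENR libraries it was 96.8%, 95.3% and 94.8%. The groups overlapped, and the difference of -1.11 percentage points was within the spread between mice (STD 96.8% ± 1.502, ENR 95.7% ± 1.03, SD, n = 3 each, unadjusted limma p-value 0.612). It ran from -1.95 without STD replicate 1 to -0.50 without STD replicate 3, and it was 0.30 as a median over sites. The 22 sites in Hist1h2ba had a mean of 97.0% and the 9 sites in Hist1h2aa one of 94.2%. The 305 bases between the genes held no covered site, so the stretch between them was not measured. The RefSeq promoter of Hist1h2ba, which reaches past its start into the gene, held 2 covered sites with a mean of 99.3%.

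The other coding sequences stood at the opposite end. The 309 coding sites of all other members had a mean of 1.26%, and the highest of them was at 15.1%. Among coding sites in the first 1 kb of any protein-coding gene (63798 sites), the mean was 3.93% and 1.07% of sites were above 80%. Covered stretches of the pair and of 2 other H2B and H2A genes are printed in plus-strand order on mm10, with covered CpGs in capitals, because they show methylated and unmethylated coding sequence of the same histone types side by side. The unmethylated examples are runs of equal length, rich in covered sites, from the H2B and the H2A gene with most covered coding sites outside the pair.
Hist1h2ba, chr13:23933875-23933942, 18 sites with a mean of 96.5%: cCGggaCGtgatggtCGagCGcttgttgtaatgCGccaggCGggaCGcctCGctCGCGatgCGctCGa
Hist2h2be, chr3:96221440-96221507, 10 sites with a mean of 0.850%: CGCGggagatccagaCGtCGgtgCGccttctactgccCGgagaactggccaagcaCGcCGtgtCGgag
Hist1h2aa, chr13:23934557-23934677, 9 sites with a mean of 94.2%: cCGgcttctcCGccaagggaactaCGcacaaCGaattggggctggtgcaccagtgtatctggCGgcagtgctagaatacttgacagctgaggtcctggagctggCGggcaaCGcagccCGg
Hist3h2a, chr11:58954802-58954922, 16 sites with a mean of 1.37%: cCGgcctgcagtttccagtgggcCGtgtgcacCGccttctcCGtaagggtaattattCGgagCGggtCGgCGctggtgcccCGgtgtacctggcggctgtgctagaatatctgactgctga
The H2B stretches of 68 bases held 12 and 9 covered CpGs, and the H2A stretches of 121 bases held 8 and 9, and the levels lay at opposite ends of the scale. Over the whole coding sequence, the observed to expected CpG ratio was 0.859 in Hist1h2ba and 0.695 in Hist1h2aa, against a median of 0.914 (range 0.812 to 1.05) in the other 34 H2A and H2B members, introns left out. Hist1h2aa lay below all of these and Hist1h2ba within their range.

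The number of CpGs in the RefSeq promoters varied widely. It was 8 in Hist1h2aa and 7 in Hist1h2ba, against a median of 11 (range 3 to 41) in 32 other H2A and H2B members. A low number was not particular to the testis pair, since 9 of the 32 held no more than Hist1h2aa, but none of these 9 had a covered site in the promoter. The 250 bases before the start of Hist1h2aa, which lie between the pair, held 6 CpGs, and those of Hist2h2aa1, the H2A gene with the most CpGs in its promoter, held 34, with 30 covered sites at a mean of 0.702%. Hist1h1a, the nearest covered member to the pair, held 11 there, with 5 covered sites at a mean of 0.199%. The sequences are from RefSeq (GRCm38.p6), read on the plus strand with every CpG in capitals, and show the unmeasured region of the pair beside 2 with covered sites, one of them at the upper end in CpG number.
Hist1h2aa, chr13:23934187-23934436, no covered site: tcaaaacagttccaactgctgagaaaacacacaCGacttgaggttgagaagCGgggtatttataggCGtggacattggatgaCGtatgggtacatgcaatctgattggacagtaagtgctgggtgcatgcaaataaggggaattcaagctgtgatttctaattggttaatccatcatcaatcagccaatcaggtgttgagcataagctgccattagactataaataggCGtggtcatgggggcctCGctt
Hist2h2aa1, chr3:96245247-96245496, 30 covered sites: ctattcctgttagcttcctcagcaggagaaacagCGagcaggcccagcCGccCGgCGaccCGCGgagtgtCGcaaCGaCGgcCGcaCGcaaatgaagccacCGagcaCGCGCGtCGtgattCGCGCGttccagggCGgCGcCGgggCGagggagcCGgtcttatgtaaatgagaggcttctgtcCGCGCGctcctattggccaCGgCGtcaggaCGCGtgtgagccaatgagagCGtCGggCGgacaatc
Hist1h1a, chr13:23763418-23763667, 5 covered sites: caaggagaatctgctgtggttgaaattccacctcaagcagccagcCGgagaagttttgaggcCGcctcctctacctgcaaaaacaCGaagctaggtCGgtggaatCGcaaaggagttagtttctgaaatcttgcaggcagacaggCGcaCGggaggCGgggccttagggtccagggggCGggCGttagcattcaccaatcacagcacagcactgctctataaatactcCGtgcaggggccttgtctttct
Across all members, the 240 upstream sites had a mean of 1.45%. Without 2 variable sites described further on, the remaining 238 had a mean of 1.21%, and the 133251 sites upstream of any protein-coding gene had a mean of 3.66%.

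**Figure D3:**
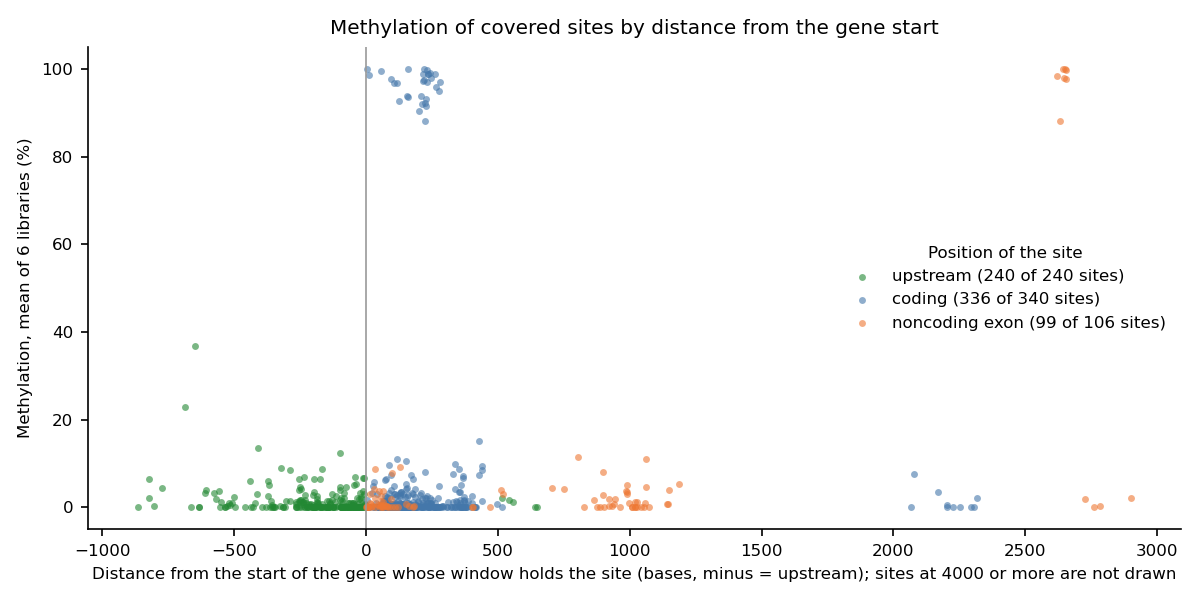
Each point is a covered site, with its distance in bases from the start of the gene whose window holds it on the x axis (the nearer start for sites in the windows of several genes) and its methylation, as the mean of 6 libraries in percent, on the y axis, coloured by its position in the gene model. The 21 sites 4000 or more bases from that start, among them the 10 intron sites, are not drawn. The coding sites above 80% are the 31 sites of Hist1h2ba and Hist1h2aa, and the 7 sites between 88.1% and 100% at the right are those of Hist4h4.

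In Hist4h4 and Hist1h2be the methylated sites were far from the histone coding sequence. Hist4h4 (chromosome 6, 136801553 to 136804415, minus strand), the only gene of its cluster, has 1 exon that runs well past its coding end. Its 7 covered sites (136801760 to 136801795) lay in the noncoding part of this exon, 2276 bases or more past the coding end and 2620 bases or more from the start. Their mean was 98.8%, 97.3% and 100% in the STD libraries and 96.1%, 96.0% and 96.2% in the ENR libraries. All ENR libraries were below all STD libraries, but the limma p-value for the difference of -2.58 points was 0.240 before adjustment. At 1 of the 7 sites (136801785) the 2 groups did not overlap, with 97.2%, 87.2% and 100% in STD and 79.3%, 86.1% and 78.9% in ENR. The 5 most methylated members' sites, at 100% in all 6 libraries, were 136801766 and 136801772 here and 23933937, 23933995 and 23934152 in Hist1h2ba. The promoter and the coding sequence of Hist4h4 held no covered site.

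Hist1h2be (23583670 to 23621124, minus strand) is annotated with an intron, and its coding sequence starts 35168 bases from its annotated start. Its mean of 43.0% over 21 sites joined 2 levels. The 10 intron sites, 5430 to 16787 bases from the coding sequence, had a mean of 89.1%, and the 11 sites of the last exon one of 1.16%. Of these 11, 9 were at 0 in all libraries, and without STD replicate 1, which was at 38.9% at 1 site (23585645), the mean was 0.359%. In the intron, the STD libraries were at 88.2%, 92.6% and 89.1% and the ENR libraries at 89.8%, 93.7% and 81.4%, with overlapping groups. The difference in the intron was -1.68 points, and 1.78 without ENR replicate 3. The lowest intron site (23602440) was at 65.4%, and ENR replicate 3 was lowest there at 38.5%. This division of the methylated sites into 3 stretches was made after their values were seen and is a description. Without the 3 stretches, the means of the types were close to one another, at 1.86% for H1, 1.19% for H2A, 1.03% for H2B, 1.39% for H3 and 1.67% for H4. A site in the windows of more than 1 type was counted in each of them. The 2 variable sites described further on, with a mean of 29.8%, were thus in both H1 and H4.

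The clusters differed in the same way. The 259 sites of Hist2 had a mean of 1.31%, and none was above 9.58%. The 57 sites of Hist3 had a mean of 1.27%. The 373 sites of Hist1 had a mean of 11.7%, which came from the second of its 2 blocks of genes (260 sites, 16.3%), where the testis pair and Hist1h2be lie. The first block (113 sites, 12 genes from Hist1h2bl to Hist1h4i) had a mean of 1.12%. Within the Hist2 cluster the gene means ran from 0.793% (Hist2h2bb) and 1.08% (the 36 sites shared by Hist2h2ac and Hist2h2be) to 1.75% (Hist2h4) and 2.38% (Hist2h2ab). Hist2h2aa1 (49 sites, 1.11%), Hist2h2aa2 (39 sites, 1.13%), Hist2h3c1 (33 sites, 1.43%) and Hist2h3c2 (44 sites, 1.34%) lay between. Both ends of this range depended on 1 library. Hist2h2bb was at 0.292% without STD replicate 2. Hist2h2ab was at 7.70% in ENR replicate 3 and at 2.19% or less in every other library. By type, the lowest and highest genes were Hist1h1e (1.21%) and Hist1h1d (4.82%) for H1, Hist1h3e (1.06%) and Hist1h3g (2.78%) for H3, and, for H4, Hist4h4 as the highest with Hist1h4m (3 sites) and Hist1h4h (4 sites) both at 0 in all 6 libraries. The lowest H2A gene was Hist1h2ac (0.601% over 7 sites, all shared with Hist1h2bc) and the lowest H2B gene Hist1h2bm (0.429% over 8 sites). Both values rested on ENR replicate 3, without which Hist1h2ac and Hist1h2bc were at 0.0519% and Hist1h2bm at 0.140%, and Hist1h2bc was then the lowest H2B gene. The lowest H1, H2A, H2B and H3 gene changed with the library left out, and for H4 the lowest were Hist1h4m and Hist1h4h throughout.

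The question of the housing comparison was whether an enriched environment changed DNA methylation in the dentate gyrus, and no histone gene passed the test. In limma fitted over 16108 protein-coding genes, 39 members were tested, and 0 of them, as of all genes (0%), had a Benjamini-Hochberg adjusted p-value under 0.05. The smallest adjusted p-value of a member was 1.00. Before adjustment, the limma p-value was under 0.05 in 3 members (Hist1h2ai, Hist2h4 and Hist1h1d), and in 3.58% of all genes. The remaining 2 members with at least 3 sites, Hist1h4m and Hist1h4h, did not vary between libraries. At single sites, limma tested 372 members' sites among 615152, and 0 were called, with a smallest adjusted p-value of 0.852 among members' sites. Before adjustment, 8 of the 372 were under 0.05, against 2.68% of all sites.

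Members with at least 3 sites were lower in ENR in 24 cases and higher in 15, and 58.4% of all genes were lower in ENR. Their differences ran from -3.65 to 1.83 percentage points with a median of -0.32, whereas the median over all genes was -0.19 and the central 95% of all genes ran from -7.15 to 4.13. Most of these differences depended on single libraries. In 35 of the 41 members, leaving out 1 library moved the difference by over 1.5 times or turned its sign, the latter in 9. The same share was not counted over all genes. In 7 of the 41 members all libraries of 1 group lay above all of the other, which held for 8.23% of all genes with at least 3 sites. These were Hist1h2ai, Hist1h1d, Hist1h1e and Hist4h4, lower in ENR, and Hist2h4 and the pair Hist1h2bq and Hist1h2ao, higher in ENR, the last 2 of which have the same 3 sites.

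**Figure D4:**
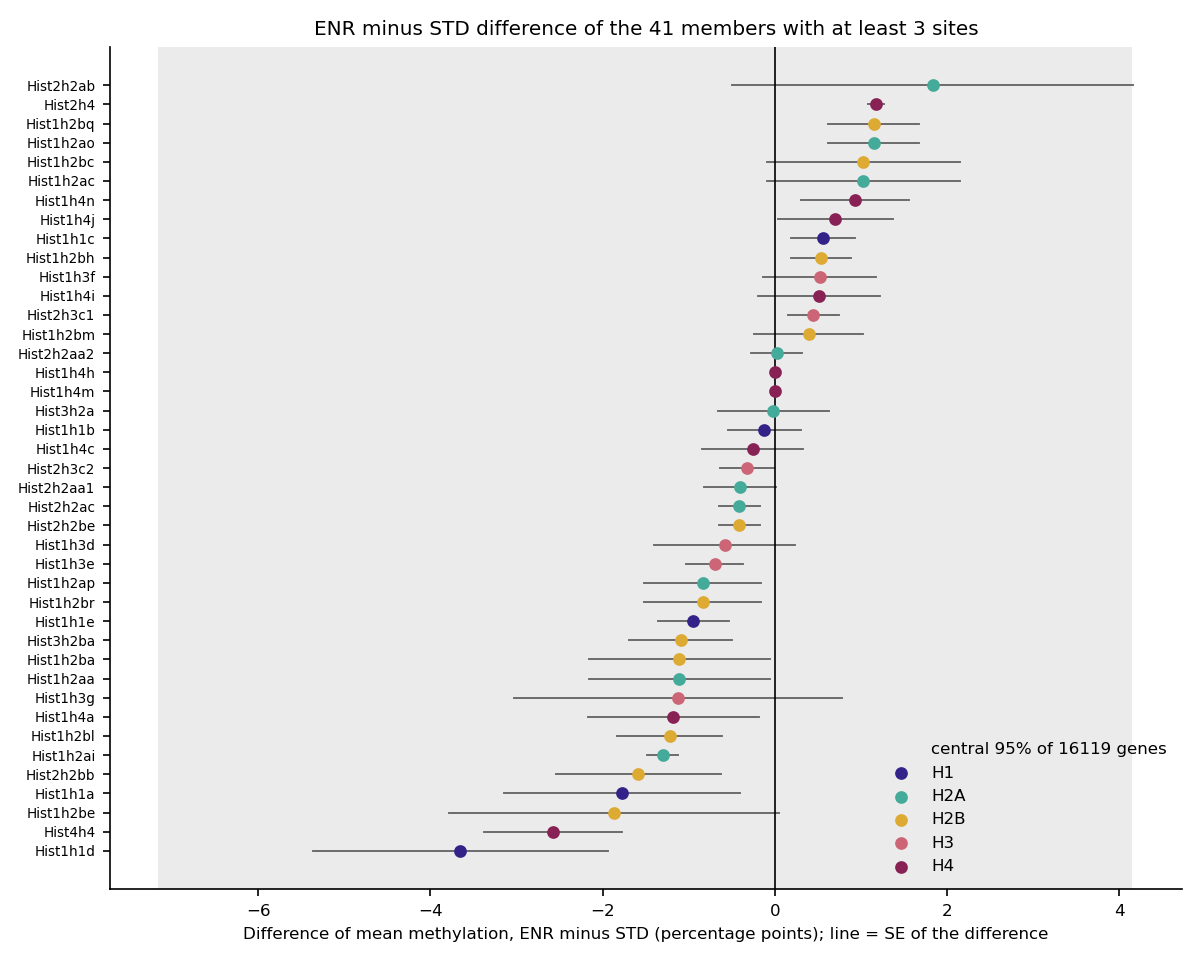
Difference of mean methylation, ENR minus STD in percentage points, of the 41 members with at least 3 sites, in order of size and coloured by histone type, with lines for the standard error of the difference and a grey band for the central 95% of all genes (-7.15 to 4.13). All points lie inside the band, and the lowest is Hist1h1d at -3.65.

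The differences in low-level genes were small in percentage points. The median over sites differed by 0 in Hist1h2ai, Hist2h4, Hist1h1d and Hist1h1e. Many sites of these genes were at 0 in all libraries, so a median says little about such differences. Hist1h2ai, an H2A gene with 7 sites, was at 1.63%, 1.26% and 1.02% in the STD libraries and at 0% in all 3 ENR libraries, with an unadjusted limma p-value of 0.00319. Of its 7 sites, 4 were shared with Hist1h2bl, in which the groups overlapped, and 4 were at 0 in all libraries. None lay in its own coding sequence. Hist2h4, which encodes histone H4, was at 1.29%, 1.12% and 1.10% in STD and at 2.43%, 2.20% and 2.38% in ENR over 38 sites, with an unadjusted limma p-value of 0.00632. In Hist2h4 the 2 groups were apart by about the size of the level itself, at STD 1.17% ± 0.107 and ENR 2.34% ± 0.123 (SD, n = 3 each). Hist1h1e, a linker histone gene, was at 1.38%, 2.37% and 1.30% in STD and at 0.298%, 0.826% and 1.10% in ENR, a difference of -0.95 points that was -0.60 without STD replicate 2. Hist1h2bq and Hist1h2ao were at 0.243%, 1.86% and 0.952% in STD and at 1.88%, 1.97% and 2.65% in ENR, with groups that almost touched. Their difference of 1.15 points was 0.758 without STD replicate 1 and 2.28 after quantile normalization.

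Elsewhere 1 library set the difference. Hist2h2ab had the largest rise of the group means (1.83 points), from 2.07%, 1.67% and 0.667% in STD to 0%, 2.19% and 7.70% in ENR, and the groups overlapped. Without ENR replicate 3 the difference was -0.37 points. Hist1h1a, a linker histone gene, had a difference of -1.77 points, with 1.88%, 1.45% and 5.70% in STD and 1.54%, 1.34% and 0.830% in ENR. Without STD replicate 3 the difference was -0.43 points. Its high value in STD replicate 3 came from coding sites 353 to 438 bases from the start. There STD replicate 3 was at 34.0% (23764019), 20.6% (23764020, the opposite strand of that CpG) and 39.0% (23764104), and no other library was above 11.1%. Hist2h2bb was at 1.46%, 3.30% and 0% in STD and at 0% in every ENR library, and its difference of -1.59 points was -0.73 without STD replicate 2. Hist3h2ba ran from 0.838% to 2.75% in STD and from 0.256% to 1.04% in ENR (-1.10 points, and -0.58 without STD replicate 3), and Hist3h2a from 1.07% to 1.71% and from 0.636% to 2.57%.

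Such isolated values were few. Among the 615 members' sites with a median under 5%, 22 (3.58%) reached 20% in at least 1 library, against 8.05% of the 531499 sites of the whole table with such a median. By library, 4, 5 and 6 of them did so in STD replicates 1, 2 and 3, and 3, 4 and 1 in ENR replicates 1, 2 and 3. Over all such sites of the table the order of the groups was the other way, with 1.32%, 1.34% and 1.29% in STD and 1.68%, 2.02% and 1.37% in ENR. The largest were a coding site of Hist1h1d (23555339), at 45.5% in STD replicate 2 and 0% in the other libraries, and a site upstream of Hist1h4a (23761270, at -40 bases from the start), at 41.7% in STD replicate 2 and 0% elsewhere. Such values stood in both groups.

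Group means differed by more than 25 points at 2 members' sites (0.287%), both lower in ENR, while 1.94% of all sites did so in either direction and 1.23% were lower in ENR. Only 8 members' sites had a mean far enough from both ends of the scale to differ by that much with equal groups. The larger difference was at 23552298 (minus strand), upstream of both Hist1h4f and the linker histone gene Hist1h1d, with 51.4%, 36.4% and 88.5% in STD and 14.3%, 8.33% and 21.4% in ENR. All 3 ENR libraries were below all STD libraries, by -44.0 points on the means and by -29.2 points without STD replicate 3. The neighbouring covered site, 23552336, did not share this, with 23.7%, 0% and 42.3% in STD and 46.7%, 7.69% and 16.7% in ENR. The second site lay upstream of Hist3h2a (58954276, plus strand, at -409 bases from the start), at 21.2%, 28.6% and 30.8% in STD and at 0% in each ENR library.

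The 2 variable sites near Hist1h1d, picked out after their values were seen, are the covered sites of the stretch printed here from mm10, plus strand, with covered CpGs in capitals. It shows the sequence next to these 2 sites.
Upstream of Hist1h1d and Hist1h4f, chr13:23552283-23552351: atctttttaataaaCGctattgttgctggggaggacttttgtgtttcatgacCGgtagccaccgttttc
Their joint mean was 37.5%, 18.2% and 65.4% in STD and 30.5%, 8.01% and 19.0% in ENR, with overlapping groups, and this is also the level of Hist1h4f. The difference of -21.2 points was -8.67 without STD replicate 3 and -32.3 without STD replicate 2. Hist1h1d, with 16 sites, was at 5.21%, 5.46% and 9.26% in STD and at 4.81%, 1.00% and 3.17% in ENR, with an unadjusted limma p-value of 0.0381. Without the 2 sites, the other 14 sites of Hist1h1d had a mean of 1.26% and a difference of -1.15 points, and the groups overlapped. Without STD replicate 2, the library that was at 45.5% at 23555339, these were 0.777% and -0.24 points.

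**Figure D5:**
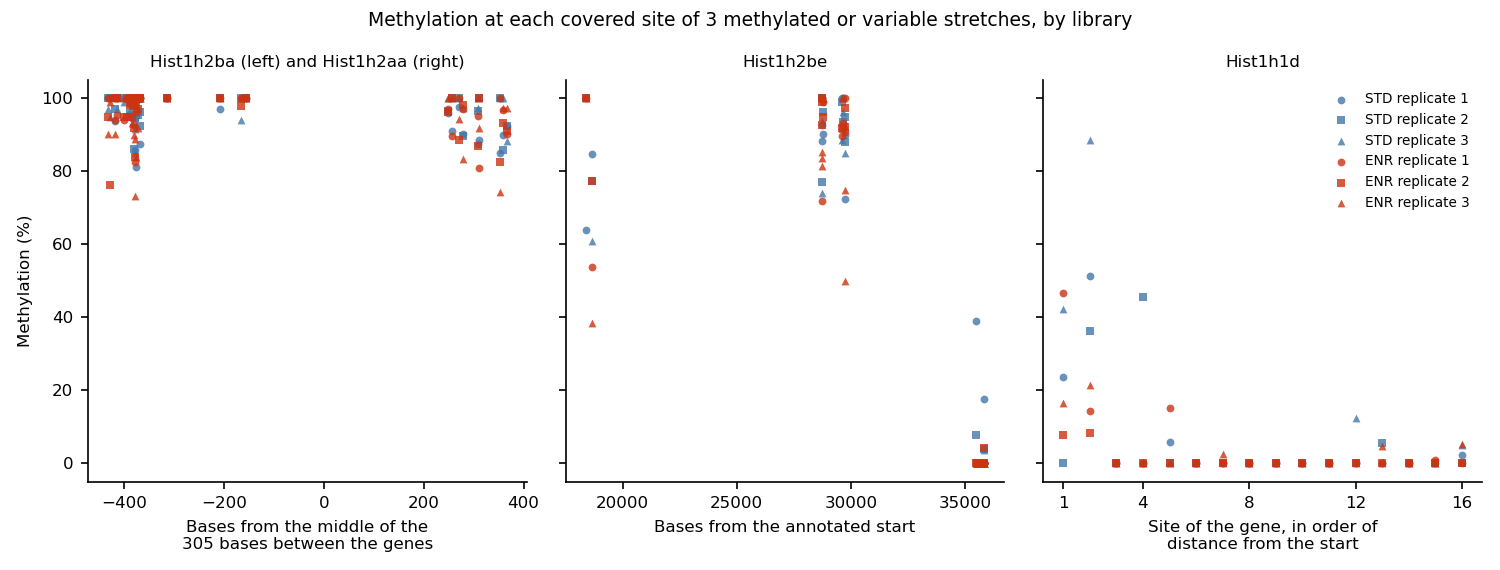
Methylation (%) at each covered site in each library, STD in blue and ENR in red with a symbol for each replicate, for Hist1h2ba and Hist1h2aa by distance from the middle of the 305 bases between them, for Hist1h2be by distance from its annotated start, and for the 16 sites of Hist1h1d in order of distance from the start, the first 2 measured from the start of Hist1h4f, which shares them. The testis pair is high at every site, Hist1h2be is high in its intron and near 0 in its last exon, and the first 2 sites of Hist1h1d spread widely while most of the others are at 0.

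Over all 696 sites, the mean was 7.94%, 7.97% and 8.08% in the STD libraries and 7.67%, 7.83% and 7.47% in the ENR libraries. The ENR libraries lay below the STD libraries by 0.34 points (STD 7.996% ± 0.0747, ENR 7.66% ± 0.180, SD, n = 3 each), and no p-value is given for this mean over chosen genes. The size depended on the summary, at -0.83 points for the mean of the members' gene means and -0.10 points after quantile normalization. The median over sites was 0 in every library, since at least 74.1% of the sites were at 0 in each, so it cannot show a difference. Over the 309 coding sites outside the testis pair, STD was at 1.32%, 1.42% and 1.42% and ENR at 1.14%, 1.19% and 1.06%, again without overlap. The groups overlapped in the 238 upstream sites without the 2 variable ones (-0.13 points, and 0.02 without ENR replicate 1) and in the 106 sites of noncoding exons (-0.29 points, and 0.02 without STD replicate 1). They also overlapped over the 646 sites left without the 3 methylated stretches and the 2 variable sites, at 1.34% to 1.43% in STD and 1.10% to 1.35% in ENR. The shares of members' sites at 0 moved with it, from 74.1%, 74.7% and 76.6% in STD to 78.4%, 79.5% and 77.0% in ENR. Over all sites of the table, the mean was 22.5% to 24.3% in STD and 21.3% to 24.2% in ENR, with replicate 3 lowest in both groups.
By cluster, the difference was -0.52 points in Hist1 (-0.31 without ENR replicate 3), -0.51 in Hist3, with overlapping groups (-0.23 without ENR replicate 1 and -0.83 without ENR replicate 2), and -2.58 in Hist4, which is Hist4h4 alone. It was 0.02 in Hist2 (-0.03 without ENR replicate 3), where the groups overlapped (STD 1.30% ± 0.0518, ENR 1.32% ± 0.0928, SD, n = 3 each). By type, it was -0.72 points in H1, -0.26 in H2A, -0.71 in H2B, -0.06 in H3 and -0.11 in H4, and the groups were apart in H1 and H2B. In H3 it ran from -0.25 without ENR replicate 2 to 0.10 without ENR replicate 3, and in H4 from -0.23 without STD replicate 2 to 0.09 without ENR replicate 3. Without the 3 methylated stretches, the difference was -0.12 in H2A, -0.54 in H2B and 0.02 in H4, and it was unchanged in H1 and H3. These differences between clusters and between types were not tested.

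Genes outside the family that share its biology were taken from fixed lists. Of 19 replication-independent histone genes, which supply histones outside S phase, 12 had at least 3 sites and 7 of these were under 5%. The highest was H1fnt, which encodes a linker histone of spermatids (chromosome 15, 98255986 to 98257293). Its 9 sites were at 94.7%, 96.9% and 93.4% in STD and at 95.2%, 95.5% and 98.4% in ENR, close to the testis pair and with overlapping groups. H2afy and H2afy2, the genes of the macroH2A variants, were at 24.9% and 15.2%. H2afz, H3f3a and the centromeric histone gene Cenpa were at 1.43%, 1.80% and 1.18%. H2afj, a neighbour of Hist4h4 on chromosome 6, was at 1.08% over 24 sites.
Of 12 genes of histone mRNA synthesis and processing, 11 had at least 3 sites and 4 were under 5%, among them Npat, the activator of histone transcription in S phase (1.06%). Slbp, which binds the stem-loop, was at 5.64%, and Lsm11, Cpsf3 and the X-linked gene Cstf2 were above 10%, at 11.3%, 19.1% and 25.3%. All 8 histone chaperone genes had at least 3 sites and 6 were under 5%, while the X-linked gene Atrx was at 33.3%. In these 3 lists, 8, 7 and 3 genes were lower in ENR and 4, 4 and 5 higher, 0 had groups that did not overlap, and 0 passed the limma test, with a smallest adjusted p-value of 1.00.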

How the data were processed

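The deposited table holds methylation percentages, calculated by the authors as methylated reads over all reads at a CpG cytosine of a library. The authors sequenced RRBS libraries of 6 mice in single-end reads of 75 bases, trimmed them with Trim Galore, aligned them to mm10 with Bismark and filtered cytosines in methylKit, which removed those under 10 reads and those at the top of the coverage range. Whether that upper limit removed sites of repeated genes was not tested. Without read numbers the study's read-based test could not be run, and every site weighed the same. Columns of other samples numbered 0.

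The members and gene lists were chosen with earlier results of these data known. Strands were separate sites. Each protein-coding gene with at least 3 sites was given the mean over its sites, from 1 kb upstream to its end, and ENR was compared with STD by linear models in limma 3.58.1 (R 4.3.3), with moderated variances that followed a trend, over all genes and over all sites, with Benjamini-Hochberg adjustment and, for sites, a difference over 25 percentage points. The scripts were tested on simulated data. Replicates were separate mice by the study's methods.

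Genes named in the text were those with a mean above 10%, the 6 largest differences, members whose groups did not overlap with a difference over 1 point, the testis-expressed genes, every covered Hist2, Hist3 and Hist4 member, members with no covered site, and the lowest and highest of each type. Named sites differed by over 25 points or were the 5 most methylated, and the other sites of Hist4h4, Hist1h2be, Hist1h1a, Hist1h4a and Hist1h1d were chosen after their values were seen, as was Hist1h4f. Further genes of the 3 lists under 10% were named after their values were seen. Sequences were read from GRCm38.p6 and its RefSeq promoters. Alternatives were other summaries, scales and windows, quantile normalization, a replicate block and leaving out each library.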

Additional observations from a re-analysis of the deposited data

How the results depend on the processing

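Calls by limma were 0 for sites and 0 for genes under all alternatives run, except that leaving out ENR replicate 3 gave 1 gene, which was not a histone gene. The range over libraries left out was therefore 0 to 1 for genes and 0 for sites. At an unadjusted p under 0.05 there were 15810 to 24040 sites and 287 to 822 genes. No member was called under any alternative, and the smallest adjusted limma p of a member was 0.904. With the replicate number as a block, 0 sites and 0 genes were called. The numbers were not taken to pair the mice, since no source names a shared litter, batch or day. Deviations of same-numbered libraries correlated over all sites with r of 0.0602, 0.0348 and 0.135. Those of other-numbered libraries correlated with r from -0.0892 to 0.0448. Sites of members that differed by over 25 points numbered 2, or 16 with a limit of 10 points and 1 with a limit of 40, and 1 to 3 when a library was left out, with 1 without STD replicate 3 and 3 without ENR replicate 2. The difference of the mean over all members' sites was -0.34 points. It became -0.83 as the mean of the gene means and -0.10 after quantile normalization, and the cause was not tested. The median over sites differed by 0, because most sites were at 0 in each library. With a library left out, the difference of the mean ran from -0.42 to -0.24. Alternatives chosen after seeing the data gave -0.28 without the 2 variable sites, -0.25 without the 3 methylated stretches and -0.23 without low sites that reached 20% in a library. Genes under 5% numbered 36 or 37 of 42, and 34 of the 36 with sites within 500 bp of the start. Of 294 values of named genes under an alternative, 13 changed sign. The median over sites took Hist2h4, Hist1h2ai, Hist1h1d and Hist1h1e to 0, which says little because many of their sites were at 0 in all libraries. It took the testis pair to 0.30, and it moved Hist1h2bq and Hist1h2ao, which have the same sites, to 1.93. It took Hist1h2be, whose sites lie at 2 levels, from -1.87 to -15.3. Without ENR replicate 3 Hist1h2be was at -0.19, and without ENR replicate 2 at -3.23. Quantile normalization moved Hist2h4 to 1.63 and Hist1h2bq and Hist1h2ao to 2.28, and Hist2h4 was at 1.76 over sites within 500 bp of the start. Leaving out 1 library moved Hist1h1d to between -4.56 and -2.34, Hist4h4 to between -3.29 and -1.92, Hist1h2bq to between 0.758 and 1.57, and Hist1h1e to between -1.14 and -0.60, each without a change of sign. A minimum of 20 reads per site and the study's read-based test were not run for lack of read numbers, and the unknown depth limits how far values near 0% or 100% can be told apart.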
